A study of Mus musculus with 4 samples.

Results

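Mitochondrial DNA carries the genes for the catalytic cores of the respiratory chain, and 6 of these genes, encoding subunits of complexes III, IV and V, were followed through the cells of mouse gingiva. They are mt-Cytb, mt-Co1, mt-Co2, mt-Co3, mt-Atp6 and mt-Atp8, taken by symbol as 6 of 32245 gene symbols in the count matrices. Single-cell RNA was measured in 4 libraries, 1 for each group, from digested and strained maxillary gingiva. The groups were disease plus metformin, with 1893 deposited barcodes, disease with 1972, metformin alone with 2814 and healthy gingiva with 1616. Strain, genotype, age, the way disease was brought about, the dose and timing of metformin and the number of mice in a library are not given in the sources used here. Metformin is a glucose-lowering drug, and the series set out to test it for the prevention of periodontal disease.

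The 6 mRNAs are made inside mitochondria from long transcripts of the mitochondrial genome that are cut into single messages, and their proteins sit in the inner mitochondrial membrane beside subunits imported from the cytosol. Cytochrome b, from mt-Cytb, is the only mitochondrially encoded subunit of complex III, which passes electrons to cytochrome c. The products of mt-Co1, mt-Co2 and mt-Co3 form the catalytic core of cytochrome c oxidase, complex IV, which reduces oxygen. Those of mt-Atp6 and mt-Atp8 belong to the membrane part of ATP synthase, complex V, through which protons return. Keratinocytes of keratinized epithelium lose their organelles, mitochondria included, as they mature at the surface.

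The identifiers in the files matched the annotation for all 6 genes, which lie on the + strand of the mitochondrial chromosome of GRCm38. Their positions are chrM:14145-15288 for mt-Cytb, chrM:5328-6872 for mt-Co1, chrM:7013-7696 for mt-Co2, chrM:8607-9390 for mt-Co3, chrM:7927-8607 for mt-Atp6 and chrM:7766-7969 for mt-Atp8. The genes of complex V share sequence: the last 43 bases of mt-Atp8, 21.1% of that gene, are also the first 43 bases of mt-Atp6, read in another frame, and both reading frames are known to lie on 1 mRNA. They are shown because a read inside this stretch cannot be given to 1 of these genes alone, with the shared bases in capitals, for mt-Atp8 whole and for the first 103 bases of mt-Atp6 (chrM:7927-8029).
mt-Atp8: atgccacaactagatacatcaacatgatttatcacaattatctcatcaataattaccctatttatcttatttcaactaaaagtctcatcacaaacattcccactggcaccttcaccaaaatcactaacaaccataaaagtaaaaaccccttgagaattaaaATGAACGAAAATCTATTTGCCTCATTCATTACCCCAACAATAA
mt-Atp6: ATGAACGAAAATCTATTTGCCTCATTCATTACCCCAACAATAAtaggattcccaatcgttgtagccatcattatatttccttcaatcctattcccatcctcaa
mt-Atp6 and mt-Co3 share 1 base, at position 8607. Nuclear copies of some members exist as pseudogenes: Gm10925, on chr1:24613974-24614651, matched mt-Atp6 at 100% of 678 bases, Gm28661 matched mt-Co2 at 100% of 681 bases, and Gm28437 matched mt-Co3 at 100% of 783 bases. For mt-Co1, Gm13340 matched at 97.6% of 1545 bases. No annotated copy matched mt-Cytb or mt-Atp8 at 95% identity or more. None of these copies was a row of the count matrices, so how reads that match both were assigned is not known here.

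After filtering, 7129 barcodes remained: 1654 in disease plus metformin, 1692 in disease, 2476 in metformin and 1307 in healthy gingiva. Libraries held 12507787 to 22333858 UMIs (unique molecular identifiers, counted molecules), and any pair shared at most 4 barcodes (0.248% of the smaller library). The limit of 20% mitochondrial UMIs touches these genes directly, since barcodes above it held 8.71%, 11.1%, 8.11% and 21.2% of the member UMIs in disease plus metformin, disease, metformin and healthy gingiva. Cells were grouped by clustering without the mitochondrial genes, so the members had no part in the clusters. Keratinocyte-like clusters, the surface epithelium, held 3835 barcodes, gland-like clusters 1617 and vascular endothelial-like clusters 217. The gland-like clusters raised 15 to 22 of the gland markers, such as Muc19, Agr2 and Aqp5, although the labels name gingiva only. Levels are CPM, a gene's UMIs scaled to 1000000 UMIs of a class, summed over its barcodes in a library. With 1 library per group, conditions could not be tested against each other, and intervals on levels and ratios cover counting error only.

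The 6 members were at high level in mucous gland cells and in 1 unusual keratinocyte-like cluster. By pooled level they were also high in a small keratinocyte-like cluster with Odam, described below. In most other keratinocyte-like clusters they were near the level of red cells. Over all libraries pooled, the summed members stood at 46404 CPM in the mucous gland cluster named for Ptprn2, with a range over libraries of 42645 to 57522. A mucous cluster of small barcodes followed at 34245 CPM (21851 to 40708), and the mucous cluster with Lipf, a gastric-type lipase gene, stood at 25250 CPM (23031 to 29284). The ranges of these last clusters overlapped, and the Ptprn2 cluster lay above both in every library range. Among keratinocyte-like clusters the RNA-rich one, so called here for its median of 21995.5 UMIs a barcode, stood at 33009 CPM (31525 to 36620). It raised 23 keratinocyte markers, Krt5, Krt14 and Trp63 among them, and was led by Pappa, Grip1 and Sox6. Endothelial-like cells stood lower, at 14860 CPM (12553 to 15574), near leukocyte-like cells at 11775 CPM (10556 to 13389), with ranges that overlapped.

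Most other keratinocyte-like clusters were lower and more variable between libraries. The soft-mucosa suprabasal cluster, marked by Krt4 and Krt13, stood at 8876 CPM (2965 to 20228) and the keratinized suprabasal cluster, marked by Krt76 and Krt16, at 5029 CPM (475 to 8111). Single barcodes carried much of this: without the top barcode of each library, the soft-mucosa levels were 1452 CPM in disease plus metformin, 7404 CPM in disease, 3742 CPM in metformin and 2205 CPM in healthy gingiva, and the keratinized levels 439, 1091, 3312 and 1145 CPM. Basal cells stood at 1176 CPM (539 to 2720), mitotic cells at 825 CPM (461 to 1260) and S-phase cells at 689 CPM (347 to 826). Erythroid-like cells, whose mature form has no mitochondria, stood at 1308 CPM, and the basal and dividing clusters were below that pooled level. In disease 1 barcode held 77.9% of erythroid-like member UMIs, and without it the level fell from 2122 to 491 CPM. The metformin level fell from 1282 to 1124 CPM without its top barcode. Without top barcodes, basal, mitotic and S-phase cells of disease stood above erythroid-like cells, at 613, 1118 and 769 CPM. In metformin basal cells also did, at 1265 CPM, but mitotic and S-phase cells were lower, at 567 and 653 CPM. A cluster of 81 barcodes with Odam, a gene of the junctional epithelium that faces the tooth, stood at 36320 CPM, but only 27 of its barcodes had mitochondrial UMIs of at least 0.5%. That pooled level includes 9 healthy barcodes, which held 3.87% of the keratinocyte-like member UMIs of their library. The cluster stood at 31304 CPM in metformin and 11114 CPM in disease, or 17431 and 6229 CPM without the top barcode.

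**Figure D1:**
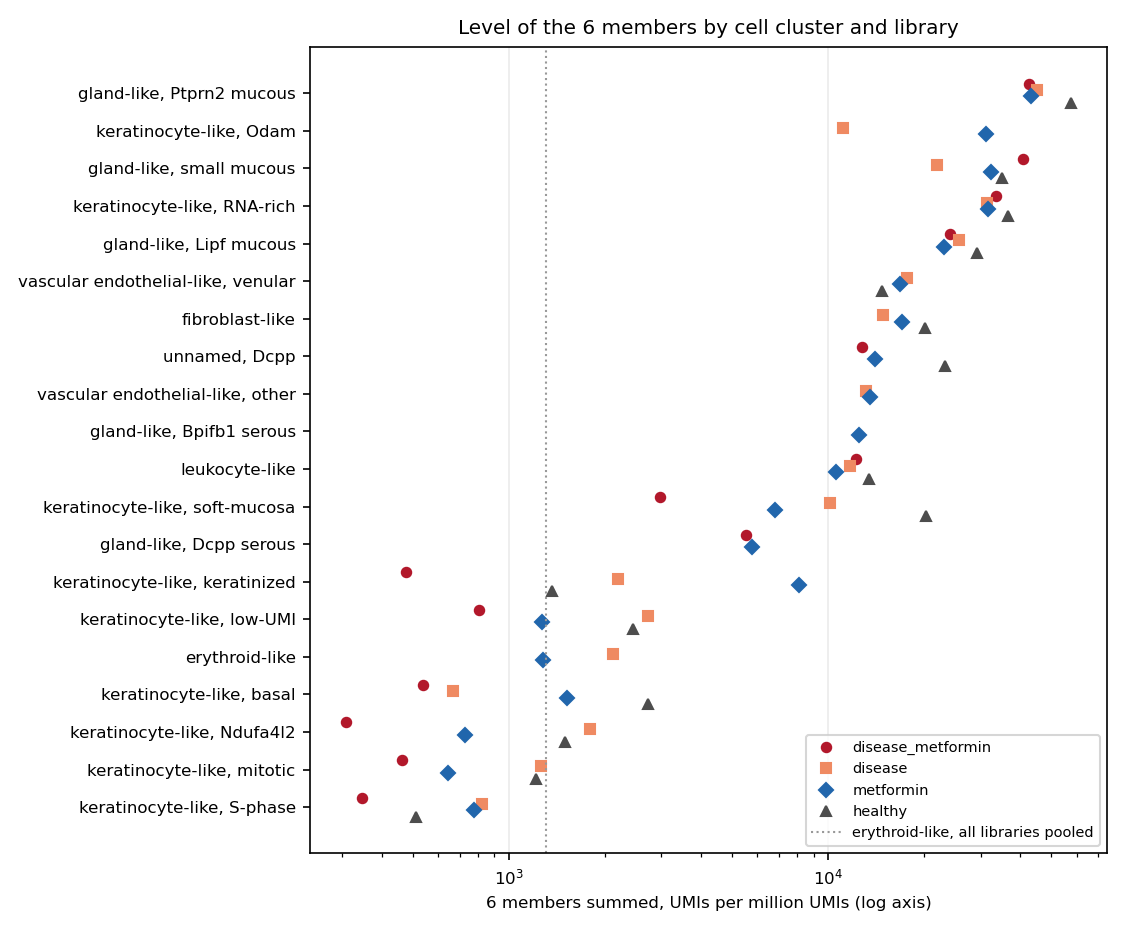
The summed level of the 6 members (horizontal log axis, CPM) is plotted for each cluster or class with at least 20 barcodes in a library, 1 point for each library, and the dotted line marks erythroid-like cells at 1308. The Ptprn2 mucous points lie between 42645 and 57522, the RNA-rich keratinocyte-like points between 31525 and 36620, and the S-phase points between 347 and 826.

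The RNA-rich cluster set the level of the whole keratinocyte-like class. It held 366 of 3835 keratinocyte-like barcodes (9.54%), 64.0% of the class's UMIs and 92.7% of its member UMIs. Its share of the class's member UMIs was 97.7% in disease plus metformin, 94.9% in disease, 89.8% in metformin and 91.7% in healthy gingiva. Its share of barcodes was lower in both metformin libraries, at 5.87% in disease plus metformin against 12.95% in disease, and 7.12% in metformin against 12.3% in healthy gingiva. Without it the summed members stood at 4653 CPM over all libraries, and at 1214 CPM in disease plus metformin, 4053 CPM in disease, 4608 CPM in metformin and 9985 CPM in healthy gingiva. The nuclear RNA Malat1 moved with the members across these clusters, making up 1.42% of UMIs in the RNA-rich cluster and 0.224% in the other keratinocyte-like clusters, and its part in the difference was not tested.

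Shares of barcodes with no member UMI, at equal depth, differed in part from the summed levels. Endothelial-like cells, below the whole keratinocyte-like class by summed CPM in all 4 libraries, had fewer such barcodes. With each barcode thinned to 500 UMIs, 14.0% of gland-like barcodes (95% exact binomial interval 12.4% to 15.8%), 23.5% of endothelial-like barcodes (18.03% to 29.7%) and 64.0% of keratinocyte-like barcodes (62.4% to 65.5%) had no UMI of any member. Unthinned, the shares were 9.71%, 19.8% and 48.7%, at median depths of 6547, 1390 and 1550 UMIs. In the RNA-rich cluster the thinned share was 1.09%, and in the other keratinocyte-like barcodes 70.6% (69.1% to 72.1%). Erythroid-like barcodes gave 66.0% (55.8% to 75.2%), and 13% unthinned at a median of 11950.5 UMIs. By this share the keratinocyte-like barcodes outside the RNA-rich cluster were no richer in member UMIs than erythroid-like barcodes, the cells taken as background. By summed level they were above them, at 4653 CPM against 1308 CPM, and 12.7% of them, against 9% of erythroid-like barcodes, had mitochondrial UMIs of at least 0.5%. How much of these UMIs came from free RNA was not tested. By library the thinned keratinocyte-like share was 75.7% in disease plus metformin against 52.9% in disease, and 69.2% in metformin against 59.9% in healthy gingiva.

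Keeping barcodes with mitochondrial UMIs of at least 0.5% retained 79.3% of gland-like, 71.4% of endothelial-like and 20.9% of keratinocyte-like barcodes, and 98.6% of the RNA-rich cluster. Since the members make up most mitochondrial UMIs, this selection raises their levels by construction. The summed members then stood at 31575, 29405, 24303 and 35190 CPM in gland-like cells of disease plus metformin, disease, metformin and healthy gingiva. In keratinocyte-like cells they stood at 34140, 30211, 31191 and 37608 CPM in the same order. In endothelial-like cells they stood at 16991, 16144, 16760 and 14912 CPM, the first of these from 17 barcodes. Gland-like cells were thus lower than keratinocyte-like cells by CPM in all 4 libraries under this selection, and the endothelial-like cells were lowest in each.

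All 6 members were higher in gland-like than in keratinocyte-like cells when the libraries were used as repeats of the contrast. mt-Cytb, the complex III gene, stood at 7042, 6911, 5033 and 6895 CPM in gland-like cells of disease plus metformin, disease, metformin and healthy gingiva, against 4554, 4865, 4416 and 6517 CPM in keratinocyte-like cells. Gland-like cells were higher within each library, although their metformin level lay inside the keratinocyte-like range. mt-Co1 of complex IV stood at 5316, 4924, 4406 and 5897 CPM in gland-like cells, against 3628, 4020, 3590 and 4950 CPM in keratinocyte-like cells. mt-Atp6 of complex V stood at 6503, 6035, 4572 and 6557 CPM in gland-like cells, against 4600, 5292, 4223 and 6128 CPM in keratinocyte-like cells. For these genes as well the groups overlapped across libraries and gland-like cells were higher within each. mt-Atp8 stood at 175, 177, 151 and 258 CPM in gland-like cells, against 98.2, 157, 107 and 165 CPM in keratinocyte-like cells.

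In edgeR's quasi-likelihood test on summed counts with library as a block, all 6 members passed a Benjamini-Hochberg adjusted p of 0.05 as higher in gland-like cells, where 35.3% of the 12908 genes tested were called higher. Log2 fold changes were 0.70 for mt-Cytb, 0.69 for mt-Co1, 0.53 for mt-Co2, 0.59 for mt-Co3, 0.57 for mt-Atp6 and 0.88 for mt-Atp8, with standard errors of 0.14 to 0.15 and a median over all genes of −0.05. By plain CPM the summed ratio was smaller, 0.09 to 0.54 on the log2 scale within libraries, and mt-Co2 was lower in gland-like cells of 1 library (−0.08). The nuclear RNAs Malat1 and Neat1 were higher in gland-like cells by more than any member, at 1.62 and 1.63 in the edgeR test, and their part in the difference was not tested. The p-values rest on how the class difference varies between these 4 libraries, with a spread shared in part over all genes. The libraries differ in condition and are not stated to be separate mice. Among barcodes with mitochondrial UMIs of at least 0.5%, 4 of 6 members were called higher by edgeR, where 72.1% of 12846 genes were called in either direction, and by CPM the summed members were then lower in gland-like cells.

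The contrast depended on which keratinocyte-like cells it was set against. Without the RNA-rich cluster, all 6 members were again higher in gland-like cells, with log2 fold changes of 2.05 for mt-Co3 to 2.58 for mt-Co1, where 37.4% of genes were called higher by edgeR. Against the RNA-rich cluster alone, the summed members were lower in gland-like cells of all 4 libraries, with log2 CPM ratios of −0.52 to −0.13. The direction differed between libraries for mt-Atp8, from −0.28 to 0.37, and for mt-Cytb, which was higher in 1 of the 4 (0.09).

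Mitochondrially encoded complex I genes, which code for subunits of the chain's entry enzyme, followed the members: all 7 were higher in gland-like cells, with a median log2 fold change of 0.84. The nuclear partners did not move as a block, and their counts stand beside 35.3% of all genes called higher and 36.8% called lower. Of 9 nuclear complex III genes 2 were higher and 3 lower in gland-like cells, of 12 complex IV genes 6 were higher and 2 lower, and of 16 complex V genes 5 were higher and 5 lower by edgeR. Uqcrc1, a core protein of complex III, had a log2 fold change of −1.47, and Ndufa4, a subunit of complex IV, one of 1.09. None of 15 genes for mitochondrial transcription and mRNA stability was higher and 5 were lower, a share near that of all genes, Lrpprc, which protects mitochondrial mRNAs, among them at −0.60. Of 24 assembly genes 9 were higher and 5 lower, led by Cox17, a copper chaperone of complex IV, at 1.41. Of 6 biogenesis regulators, Ppargc1a, the coactivator PGC-1α, was higher at 3.01, whereas Nrf1 was lower at −1.21.

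Endothelial-like cells held less of 5 members than the whole keratinocyte-like class. mt-Cytb stood at 2718, 2575, 3003 and 2116 CPM in endothelial-like cells of disease plus metformin, disease, metformin and healthy gingiva, against 4554, 4865, 4416 and 6517 CPM in keratinocyte-like cells. mt-Co3 stood at 2322, 2617, 2625 and 2343 CPM, against 3813, 4467, 3711 and 5792 CPM, and both genes were lower within each library. mt-Atp8 went the other way by CPM, at 102, 211, 182 and 185 CPM in endothelial-like cells against 98.2, 157, 107 and 165 CPM in keratinocyte-like cells. In the edgeR quasi-likelihood test 5 members were lower, with 23.7% of 11217 genes called lower. Their log2 fold changes were −1.40 for mt-Cytb, −1.10 for mt-Co1, −1.13 for mt-Co2, −1.27 for mt-Co3 and −0.93 for mt-Atp6 (SE 0.19 to 0.20). mt-Atp8 had −0.02 (edgeR adjusted p = 0.957), while its CPM ratio was positive in all 4 libraries, 0.06 to 0.76, so its direction turned with the scaling.

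Without the RNA-rich cluster the direction turned, and the members were higher in endothelial-like cells, and 3 passed the edgeR test: mt-Co1 at 0.88 (adjusted p = 0.0117), mt-Atp6 at 0.80 (adjusted p = 0.0143) and mt-Atp8 at 1.55 (adjusted p = 4.07e-05), with 30.3% of genes called higher. mt-Cytb, mt-Co2 and mt-Co3 had 0.39, 0.53 and 0.26 and did not pass. In the contrast with the whole class, 5 of 7 mitochondrial complex I genes were also lower. So were 9 of 9 nuclear complex III genes, 10 of 12 of complex IV and 15 of 16 of complex V, such as Cyc1, the cytochrome c1 gene, at −1.85 and Atp5g1, a gene for the rotating c-ring of ATP synthase, at −1.82.

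Within the epithelium, all 6 members were higher in suprabasal than in basal cells, yet few barcodes carried the difference. The summed members stood at 1322 CPM in suprabasal cells of disease plus metformin, with 10763 CPM in healthy gingiva the highest, against 539 to 2720 CPM in basal cells. Log2 fold changes in the edgeR quasi-likelihood test were 2.30 for mt-Cytb, 2.28 for mt-Co1, 2.32 for mt-Co2, 2.13 for mt-Co3, 1.94 for mt-Atp6 and 1.55 for mt-Atp8 (SE 0.14 to 0.42), all at an adjusted p below 0.05, where 18.7% of 4249 genes were called higher. Single libraries differed by more than these standard errors convey. Their log2 CPM ratios ran from 1.29 to 3.41 for the summed members, 0.93 to 3.94 for mt-Cytb and −0.07 to 2.81 for mt-Atp8. With the standard error allowed to vary more between genes (robust shrinkage), mt-Cytb did not pass (edgeR adjusted p = 0.0663). In healthy gingiva 1 barcode held 86.1% of the suprabasal member UMIs and another 87.2% of the basal ones. Without these barcodes, that library stood at 1718 CPM in suprabasal and 360 CPM in basal cells. Leaving out the top barcode of each sum, 5 members were called higher by edgeR, at 1.68 to 2.29. In that fit 31.3% of 3870 genes were called in either direction, and mt-Atp8 had too few UMIs to be tested.

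The soft-mucosa cluster was above basal cells in all 4 libraries, with summed log2 CPM ratios of 2.17 to 3.92. The keratinized cluster was above them in 2 of 4 libraries (−1.001 to 2.42), but in each library once the top barcode of each sum was left out. The keratinized levels were then 439 CPM in disease plus metformin, 1091 CPM in disease, 3312 CPM in metformin and 1145 CPM in healthy gingiva. Basal levels were then 408, 613, 1265 and 360 CPM in the same order. The share of barcodes with no member UMI at 500 UMIs was 71.0% in suprabasal (68.1% to 73.7%) and 80.4% in basal cells (76.3% to 84.1%). Both lie at or above the erythroid-like share of 66.0%. Beside the members, 6 of 6 complex I genes tested were higher in suprabasal cells, and Malat1 was as well, at 1.81. Of the nuclear partners, 1 complex III gene was higher and 2 lower, 3 complex IV genes higher and 2 lower, and 2 complex V genes higher and 5 lower.

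Among gland-like cells, all 6 members were higher in the mucous clusters than in the others, in the 3 libraries with enough cells. The other gland-like cells are serous ones, with Dcpp or Bpifb1 genes, and a cluster with Ltf, the lactoferrin gene. mt-Cytb stood at 7401, 6345 and 8422 CPM in mucous cells of disease plus metformin, metformin and healthy gingiva, against 3364, 2572 and 2113 CPM in the other gland-like cells. mt-Atp6 stood at 6874, 5832 and 8017 CPM, against 2704, 2211 and 1982 CPM. Both genes were higher in mucous cells within each of the 3 libraries. Disease had 18 barcodes of the other kind and was left out. The edgeR quasi-likelihood test gave log2 fold changes of 0.83 for mt-Cytb, 0.85 for mt-Co1, 0.79 for mt-Co2, 0.98 for mt-Co3, 0.94 for mt-Atp6 and 1.00 for mt-Atp8 (SE 0.19 to 0.20, adjusted p 0.00365 to 0.0246). In this contrast 3.31% of 10601 genes were called higher.

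That call did not stand under other choices. No member passed among barcodes with mitochondrial UMIs of at least 0.5% (log2 fold changes 0.58 to 0.79), with no library block, or without the metformin library, although all 6 stayed higher in mucous cells under each of these. Their log2 fold changes were 0.75 to 0.99 with no block and 0.68 to 0.92 without the metformin library. Of the complex I genes 6 of 7 were higher, while 0 of 9 and 0 of 12 nuclear complex III and IV genes were called in either direction and 1 of 16 complex V genes was lower, Atp5e at −0.70. Malat1 was higher by 0.77 and made up 4.54% of UMIs in the Ptprn2 cluster, 2.00% in the Lipf cluster and 0.357% in the small mucous cluster.

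**Figure D2:**
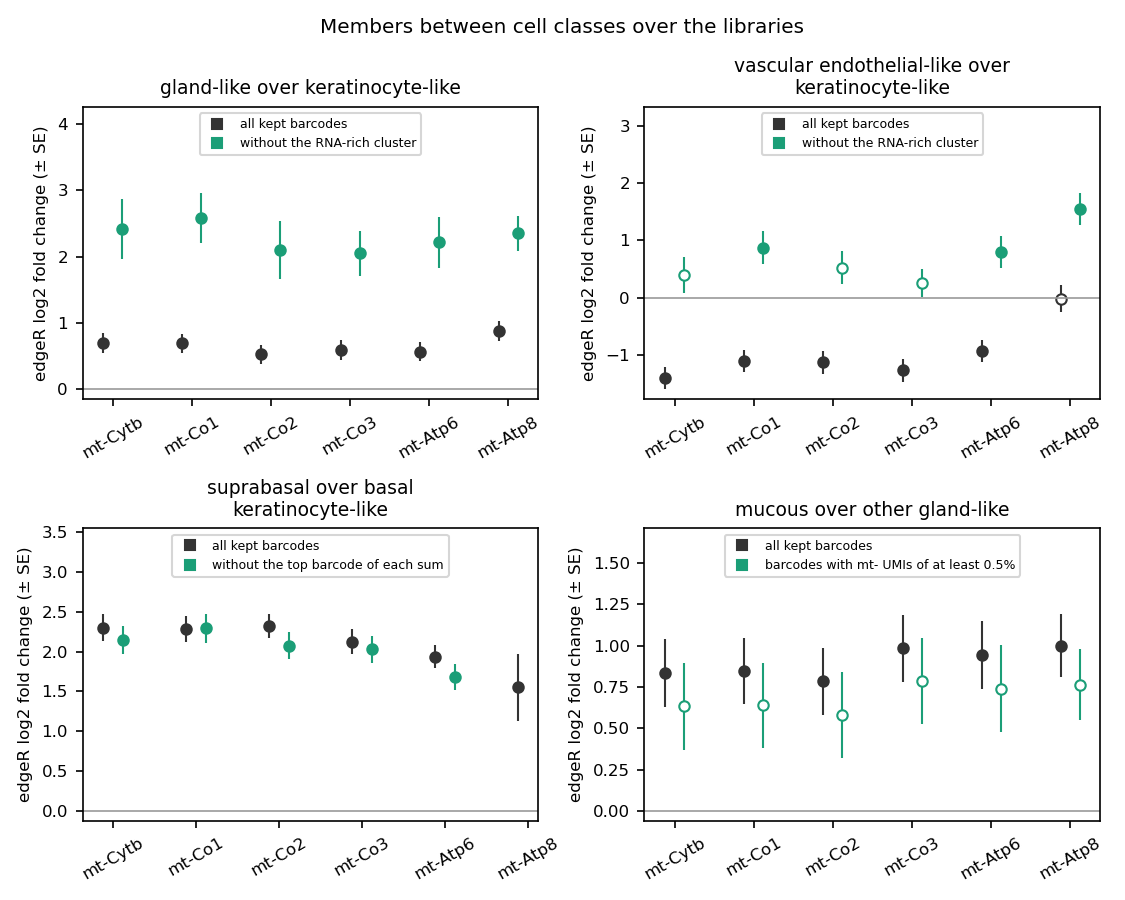
Log2 fold changes of the 6 members from edgeR's quasi-likelihood test (vertical axes, bars are standard errors), with filled points at an adjusted p below 0.05 and open points above. Against keratinocyte-like cells without the RNA-rich cluster, gland-like values lie between 2.05 and 2.58, and endothelial-like values move to 0.26 to 1.55.

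The members could also be set beside their 37 nuclear partners of complexes III to V, as UMIs of the 6 members for each nuclear UMI. The ratio was 1.39 in gland-like, 1.00 in endothelial-like and 0.996 in keratinocyte-like cells. Within these classes it spread much more, with 3.70 in Ptprn2 mucous, 1.04 in Lipf mucous and 1.54 in RNA-rich cells. It was 3.17 in the small Odam cluster, but 0.182 over all keratinocyte-like clusters outside the RNA-rich one and 0.0232 in S-phase cells. The nuclear partners did not share that fall, with a summed level of 25583 CPM in the other keratinocyte-like clusters and 21409 CPM in the RNA-rich cluster.

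Within the mitochondrial mRNA pool the balance of the members also differed between classes. These shares come from pooled UMIs, so barcodes rich in mitochondrial RNA weigh most. The RNA-rich cluster, with 9.54% of keratinocyte-like barcodes, held 92.7% of that class's member UMIs. Together the 6 members made up 75.9% of the UMIs of the 13 mitochondrial mRNAs in gland-like, 74.6% in endothelial-like and 77.6% in keratinocyte-like cells. The share of mt-Atp6 in endothelial-like cells was 19.0%, 19.2%, 18.4% and 18.8% in disease plus metformin, disease, metformin and healthy gingiva. In gland-like cells it was 16.3%, 15.8%, 15.7% and 15.5%, and in keratinocyte-like cells 17.4%, 17.5%, 16.6% and 15.7%. Each endothelial-like value was above all values of both epithelial classes, though the 95% binomial intervals were wide, for example 16.6% to 21.2% in healthy gingiva.

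The share of mt-Cytb went the other way, at 14.9%, 12.5%, 14.3% and 12.8% in endothelial-like cells of the same libraries. Gland-like cells had 17.7%, 18.1%, 17.2% and 16.3%, and keratinocyte-like cells 17.2%, 16.1%, 17.3% and 16.7%. No endothelial-like value reached the lowest of either epithelial class. The shares of mt-Co1 overlapped between the classes. mt-Atp8, with 105 UMIs in all endothelial-like cells, made up 0.914% there (0.748% to 1.11%), 0.504% in gland-like and 0.440% in keratinocyte-like cells.

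**Figure D3:**
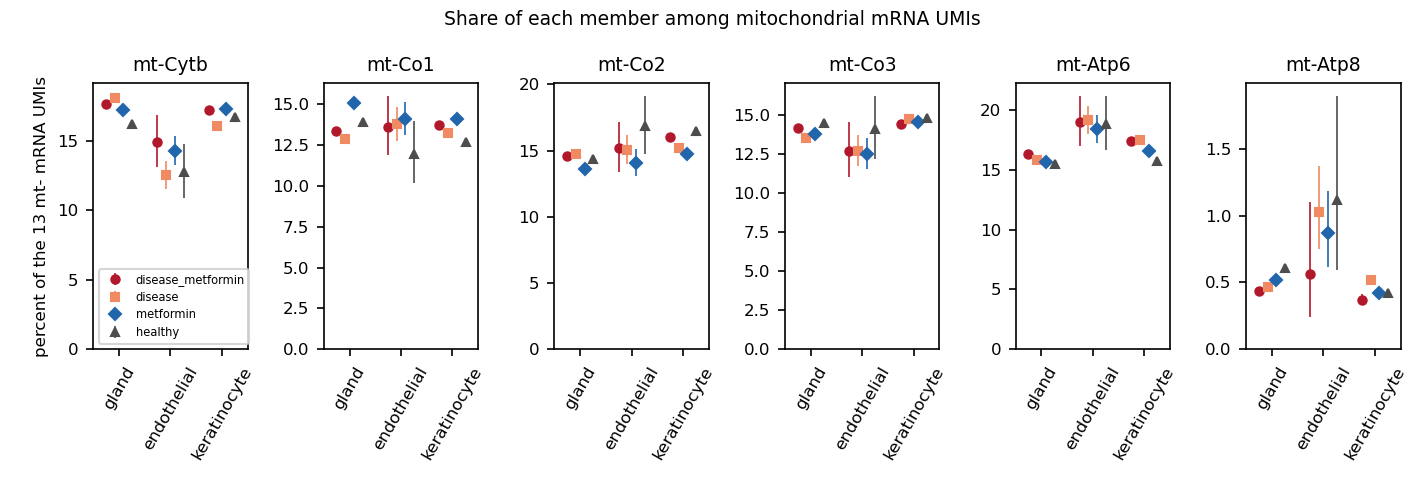
Share of each member among UMIs of the 13 mitochondrial mRNAs (vertical axes, percent, from 0), by class and library, with exact 95% binomial intervals. UMIs are pooled over barcodes, and most keratinocyte-like member UMIs came from the RNA-rich cluster. The endothelial-like points for mt-Atp6 lie at 18.4% to 19.2%, above both epithelial classes, and those for mt-Cytb at 12.5% to 14.9%, below them.

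The conditions were set side by side without a test. Disease and metformin were each set against the same healthy library, and disease plus metformin against both, so these comparisons share libraries. In the RNA-rich cluster, where the members were most evenly detected, the summed level was 33637 CPM in disease plus metformin, 31524 CPM in disease, 31697 CPM in metformin and 36620 CPM in healthy gingiva. The log2 ratios were −0.22 for disease over healthy (counting interval −0.23 to −0.20), −0.21 for metformin over healthy, 0.09 for disease plus metformin over disease and 0.09 for disease plus metformin over metformin. No member was past 1.5-fold in any of these 4 comparisons, where 8.97%, 13.6%, 10% and 7.75% of genes were at least 1.5-fold lower and 7.79%, 6.06%, 5.47% and 8.91% higher. mt-Co2 had the furthest value below healthy gingiva, at 5966 CPM in metformin and 6158 CPM in disease, against 7787 CPM in healthy gingiva.

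In gland-like cells the summed level was 30483 CPM in disease plus metformin, 28850 CPM in disease, 22157 CPM in metformin and 31868 CPM in healthy gingiva. Metformin over healthy had a log2 ratio of −0.52, and 3 members were at least 1.5-fold lower: mt-Co2 at −0.62, mt-Co3 at −0.61 and mt-Atp8 at −0.77. That was so of 4.24% of genes, and the median over all genes was 0.21. Disease over healthy had −0.14 and no member at least 1.5-fold lower, where 4.57% of genes were. Disease plus metformin over disease had 0.08 and over metformin 0.46, with no member past 1.5-fold upward, where 6.63% and 5.99% of genes were higher.

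The mix of gland cells differed beside this. Gland-like cells other than mucous, which hold less of the members, numbered 53 in disease plus metformin, 18 in disease, 211 in metformin and 40 in healthy gingiva. Within the Ptprn2 cluster metformin over healthy had −0.41, at 43310 CPM in metformin against 57522 CPM in healthy gingiva, and within the Lipf cluster −0.35. Disease over healthy had −0.36 in the Ptprn2 cluster and −0.19 in the Lipf cluster, and mt-Atp8 alone was past 1.5-fold, lower in the Ptprn2 cluster of disease and of metformin, where 13.6% and 8.77% of genes were. Disease plus metformin over disease had −0.08 and −0.10 in these clusters. The small mucous cluster varied more, with 40708 CPM in disease plus metformin, 21851 CPM in disease, 32441 CPM in metformin and 35122 CPM in healthy gingiva. All 6 members were at least 1.5-fold lower there in disease than in healthy gingiva, where 11.4% of genes were.

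Of the 7 mitochondrial complex I genes, 5 were at least 1.5-fold lower in gland-like cells of the metformin library than in healthy gingiva, such as mt-Nd1 at −0.68. The nuclear partners stood the other way: medians were 0.44 over complex III, 0.47 over complex IV and 0.47 over complex V genes. Uqcrh of complex III stood at 892 CPM in metformin and 621 CPM in healthy gingiva, and Cox6c of complex IV at 840 and 536 CPM in the same libraries. Malat1 was lower, at −0.45.

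Over the whole keratinocyte-like class the summed level was 20920 CPM in disease plus metformin, 23397 CPM in disease, 19799 CPM in metformin and 29988 CPM in healthy gingiva. Metformin over healthy had −0.60 with 3 members at least 1.5-fold lower, where 24.3% of genes were, a share too near theirs to read as a result about the members. Among barcodes with mitochondrial UMIs of at least 0.5% the ratio was −0.27 with none, where 14.4% of genes were. Disease plus metformin over disease had −0.16 over all barcodes and 0.18 under that selection, so its direction turned. Outside the RNA-rich cluster the ratios were larger, −1.30 for disease over healthy and −1.74 for disease plus metformin over disease, all 6 members at least 1.5-fold lower in both, where 10.8% and 18.5% of genes were. Under the 0.5% selection the first was −1.75 and the second 0.53, so the second turned. Without the top barcode of each library, these cells stood at 940 CPM in disease plus metformin, 3196 CPM in disease, 3494 CPM in metformin and 6501 CPM in healthy gingiva. The healthy level rested on few barcodes. Its top barcode held 38.3% of the member UMIs. A further 9 Odam barcodes, still in the 6501 CPM, held 3.87% of the class's member UMIs, of 8.29% outside the RNA-rich cluster. Without top barcodes, disease stood above healthy gingiva in the soft-mucosa cluster, at 7404 against 2205 CPM. In the keratinized cluster it stood at 1091 against 1145 CPM.

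In endothelial-like cells the libraries stood in another order than in both epithelial classes, which was not tested. The summed level was 13869 CPM in disease plus metformin (28 barcodes), 15267 CPM in disease (99), 15574 CPM in metformin (55) and 12553 CPM in healthy gingiva (35). Log2 ratios were 0.28 for disease over healthy (0.17 to 0.39) and 0.31 for metformin over healthy (0.20 to 0.42). Medians over the members were 0.24 and 0.23, but 0.06 and 0.09 among barcodes with mitochondrial UMIs of at least 0.5%. That selection kept 83.8% of disease, 61.8% of metformin and 60% of healthy barcodes. In metformin 1 barcode held 23.7% of the member UMIs. The summed log2 ratios were −0.14 for disease plus metformin over disease and −0.17 over metformin. With few UMIs, 1 member was past 1.5-fold in each of the last comparisons, mt-Atp8, lower at −1.05 and −0.83, where 19% and 19.4% of genes were.

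**Figure D4:**
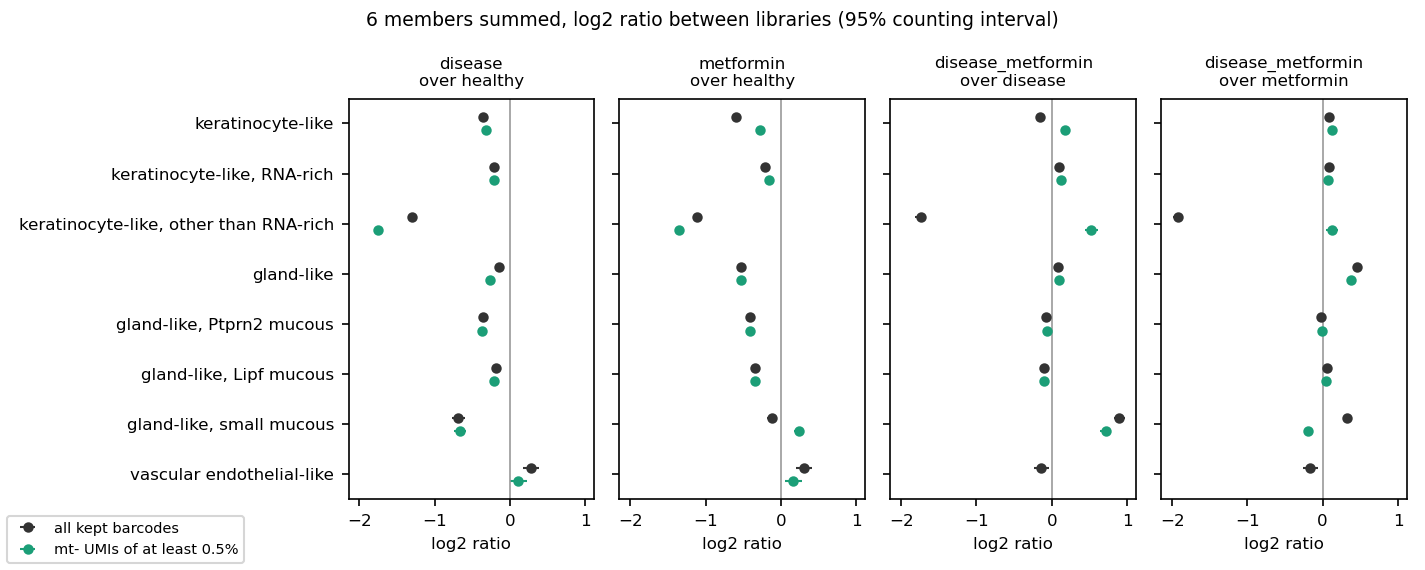
Log2 ratio of the summed members between libraries (horizontal axes) in 8 classes or clusters, for all barcodes and for those with mitochondrial UMIs of at least 0.5%; bars are 95% counting intervals. RNA-rich values lie between −0.22 and 0.13, and the keratinocyte-like cells outside that cluster move from −1.74 over all barcodes to 0.53 under the selection for disease plus metformin over disease.

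**Figure D5:**
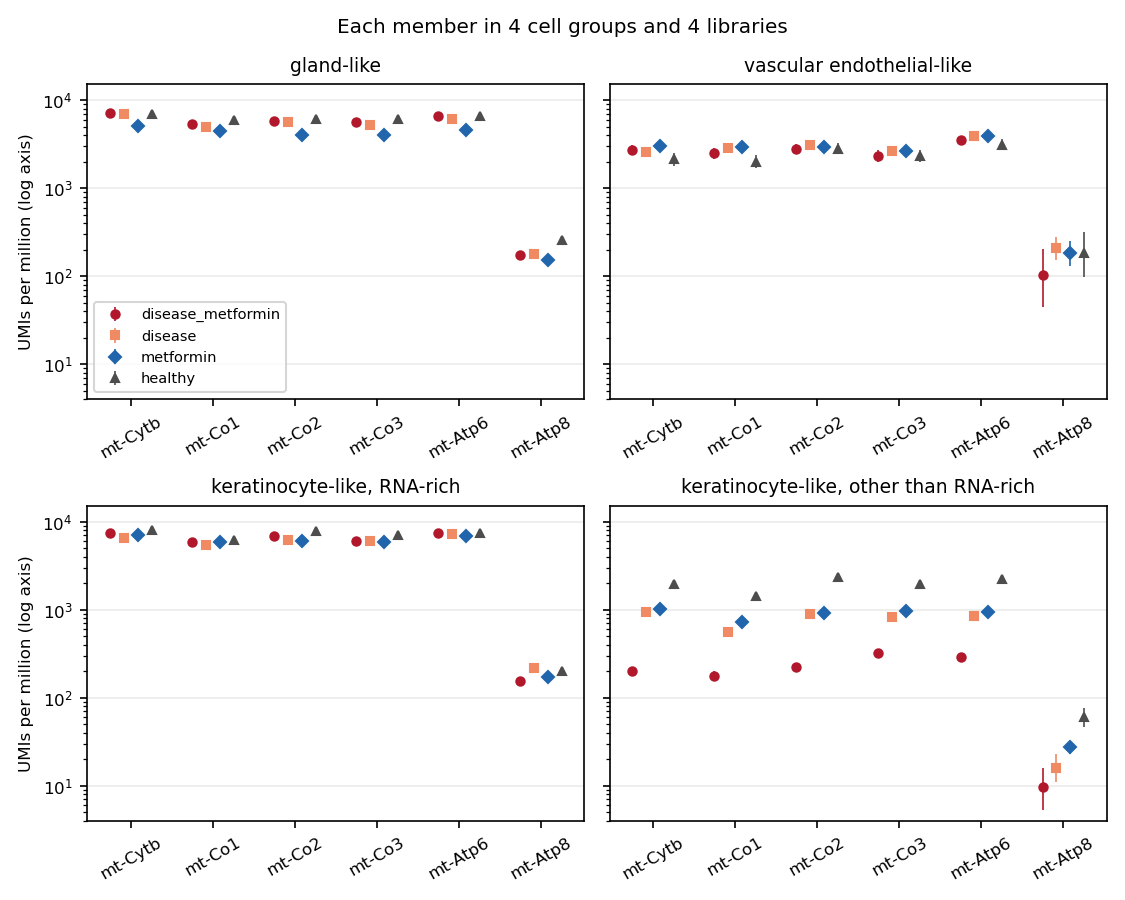
Level of each member (vertical log axis, CPM) in gland-like, endothelial-like, RNA-rich and other keratinocyte-like cells, 1 point for each library with its 95% counting interval. In the last panel mt-Cytb stands at 198 in disease plus metformin and 1959 in healthy gingiva, whereas in the RNA-rich panel it stands at 7365 and 8028.

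The members moved together across cells. Over 69 units of cluster or class and library, each member's Spearman correlation with the sum of the other 5 was 0.93 for mt-Atp8 and 0.986 to 0.995 for the rest, and the summed complex I genes correlated at 0.99 with the summed members. These units share libraries, depth and barcodes, and the values are a description. The genes whose pattern was most like that of the summed members among 5880 ranked were Eif4g1 (0.88), a translation initiation factor, Golga4 (0.87), a Golgi protein, Atp2a2 (0.87), the calcium pump of the endoplasmic reticulum, and App (0.85), the amyloid precursor protein. The most opposite were Oaz1 (−0.78), Ppia (−0.73) and the ribosomal protein genes Rplp2 (−0.73), Rps16 (−0.73) and Rps4x (−0.72). Summed nuclear partners ran opposite too, at −0.56 for complex III, −0.46 for complex IV and −0.63 for complex V, and Malat1 stood at 0.75.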

How the data were processed

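Single-cell libraries of mouse gingiva were analysed from UMI counts per gene and barcode, as deposited. The authors made these counts with Cell Ranger 7.0.1 and bcl2fastq on mm10, per the submitters' processing notes. No label states which transcript end was counted. Members were matched by symbol and identifier to the GENCODE annotation of GRCm38, and copies were sought with blastn 2.17.0.

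Barcodes under 200 detected genes or over 20% mitochondrial UMIs were removed, which left 7129 of 8295. Scrublet marked 5 doublets, under 0.5%, so doublets were in effect not removed. Cells were clustered with scanpy 1.11.5 (2000 variable genes, 30 components, 15 neighbours, Leiden resolution 1) without mitochondrial genes. A class name needed at least 3 markers raised 2-fold, 25% of its list and at least 1 marker among the top 10 genes. After the clusters were seen, the rule was adjusted: erythroid genes no longer blocked another name, layers could be named from 3 of the top 10 genes, and endothelial sub-clusters led by another class's genes were left out. Names are rebuilt and may differ from the study's.

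Counts summed by class and library (at least 20 barcodes) were tested with edgeR 4.0.16, quasi-likelihood, TMM scaling and a library block, with Benjamini-Hochberg adjustment over all genes and a threshold of 0.05. Standard errors of log2 fold changes were worked out from the fold change and the test's F statistic, whose spread is moderated over genes. DESeq2 1.42.0 was an alternative. On simulated counts, 2-fold changes were called for 93% of changed genes in the gland-like contrast, 29% in the endothelial-like, 85% in the suprabasal and 64% in the mucous one. Between libraries, genes past 1.5-fold with at least 20 UMIs were counted. Shares have exact binomial and levels exact Poisson intervals at 95%, which cover counting error only. The 6 members and the gene lists were chosen with earlier results of these data known. All members are named, and from each list at most 4 genes with the largest changes and at least 50 UMIs, plus the 5 genes most like the members, of which 1 is not reported here. Atp5pb, Fastkd4 and Atp5if1 had no row under those symbols. The remaining alternatives were no limit on mitochondrial UMIs, those of at least 0.5%, other scalings, mitochondrial genes kept in clustering, and each library left out. Those without the RNA-rich cluster, without the top barcode, with 1 suprabasal cluster and with robust shrinkage were chosen after seeing the data.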

Additional observations from a re-analysis of the deposited data

Results flagged for a closer look

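The log2 ratio for metformin took opposite signs in disease (disease plus metformin over disease) and in healthy gingiva (metformin over healthy) for the summed members in several cell groups. With 1 library per group the difference between these ratios was not tested. Over all kept cells it was 0.73, from 0.13 in disease and −0.61 in healthy gingiva. In gland-like cells it was 0.60, from 0.08 and −0.52, and in the small mucous cluster 1.01, from 0.90 and −0.11. Both ratios were negative in the Ptprn2 mucous cluster, at −0.08 in disease and −0.41 in healthy gingiva. They were also negative in the Lipf mucous cluster, at −0.10 and −0.35. These clusters held 42.5% and 46.0% of gland-like member UMIs over all libraries. At mitochondrial UMIs of at least 0.5%, the median member ratios in the small mucous cluster were 0.72 in disease and 0.24 in healthy gingiva. In the RNA-rich keratinocyte-like cluster the difference was 0.30, from 0.09 and −0.21. Endothelial-like cells had −0.45, from −0.14 in disease and 0.31 in healthy gingiva. The keratinized suprabasal cluster had −4.78, from −2.21 and 2.58. There 1 barcode held 62.9% of the member UMIs of the metformin library, and 1 barcode held 53.9% of those of the disease library. S-phase cells had −1.86, from −1.25 and 0.61, at levels below the pooled level of erythroid-like cells.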

How the results depend on the processing

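No paired analysis was possible because each group has 1 library, so no replicate numbers pair samples. Leaving out each library gave 5 to 6 members called in the gland-like contrast, where 65.5% to 67.7% of genes were called in either direction. It gave 5 in the endothelial-like contrast (30.2% to 36% of genes) and 6 in the suprabasal one (25% to 33.3%). The mucous contrast gave 0 to 6 (5% to 7% of genes), the 0 without the metformin library. It also gave 0 at mitochondrial UMIs of at least 0.5% (4.77%) and 0 with no library block (3.41%). Without the RNA-rich cluster the endothelial-like contrast gave 3 members, in the opposite direction, where 62.6% of genes were called. The cause of these changes was not tested. Thinned to 1000 UMIs, 58.3% of keratinocyte-like, 7.34% of gland-like, 7.87% of endothelial-like and 55.0% of erythroid-like barcodes had no member UMI.

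Log2 ratios of the summed members between libraries moved as follows, in the order disease over healthy, metformin over healthy, disease plus metformin over disease and disease plus metformin over metformin. With each barcode weighted equally they were −0.20, −0.74, −0.95 and −0.41 in keratinocyte-like cells and −0.22, −0.85, 0.14 and 0.76 in gland-like cells. With median-of-ratios scaling they were −0.35, −0.35, −0.030 and −0.0076 in keratinocyte-like and −0.40, −0.73, 0.17 and 0.50 in gland-like cells. At mitochondrial UMIs of at least 0.5% they were −0.32, −0.27, 0.18 and 0.13 in keratinocyte-like cells, and −0.26, 0.10 and 0.38 in gland-like cells for all but metformin over healthy. With no upper limit they were −0.71, −0.98, −0.23 and 0.047 in keratinocyte-like and −0.12, −0.50, 0.092 and 0.47 in gland-like cells. Without the top barcode of each library they were −0.37, −0.58, −0.19 and 0.025 in keratinocyte-like cells and −0.13 in gland-like cells for disease over healthy. With mitochondrial genes in the clustering the first 3 were −0.33, −0.56 and −0.14 in keratinocyte-like cells. Without the RNA-rich cluster the 4 were −1.30, −1.12, −1.74 and −1.92, where few barcodes held most member UMIs of healthy gingiva. Thus 2 directions in keratinocyte-like cells, disease plus metformin over disease and over metformin, turned with these choices. The suprabasal contrast at 0.5% could not be fitted.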

Other observations

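Fibroblast-like cells, the collagen-producing cells under the epithelium, stood at 16575 CPM for the summed members pooled over libraries, and their members made up 70.8% of mitochondrial mRNA UMIs. Leukocyte-like cells had the lowest share of mt-Cytb among the classes described, 10.9%, beside 16.8% for mt-Co3. Venular endothelial-like cells stood above the other endothelial-like cells in both libraries with enough barcodes, with summed log2 CPM ratios of 0.42 and 0.31. An unnamed cluster of 834 barcodes led by Dcpp genes, which raised gland markers together with keratinocyte markers, stood at 14710 CPM. In the Odam cluster 1 barcode held most member UMIs in each of the libraries with enough barcodes; without it the levels were 6229 CPM in disease and 17431 CPM in metformin.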
